A study of Mus musculus with 3 samples.

Results

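The 8 genes described here carry negative feedback and survival signals downstream of cytokine receptors: Cish, Socs1, Socs2, Socs3 and Socs5 of the SOCS family, and the kinases Pim1, Pim2 and Pim3. They were chosen by symbol from the 50600 genes counted, and all 8 were found. The RNA came from mouse primary cells labelled T-helper 1 (Th1), strain C57BL/6NJ, a type of CD4 T cell known for secreting interferon gamma. The file headers name the libraries with a time of 72 hours and the word sorted, and the labels call the assay total RNA-seq while the protocol they link is named for polyA+ RNA. The labels gave 1 group of 3 libraries, numbered as biological replicates 1, 2 and 3 with the same donor record, with no other fate, treatment or control, and with age and sex not given. The comparisons are therefore between genes and between libraries, and p-values measure only the spread or counting error of these libraries, which may be technical.

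Cytokines bind receptor chains that carry JAK kinases, which phosphorylate STAT factors, and STATs switch on SOCS and PIM genes. SOCS proteins share an SH2 domain, which binds phosphotyrosine, and a SOCS box, which recruits elongins and a cullin ligase so that the bound receptor or kinase is ubiquitinated. PIM kinases need no activating phosphorylation, so their activity follows the amount of protein, and they promote growth and survival in cytokine-stimulated T cells. In CD4 T cells, Cish, Socs1 and Pim1 are known as genes induced by interleukin 2 through STAT5, and Socs3 as a gene induced through STAT3.

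Values are counts of fragments per gene, and TPM, which divides counts by exon length and scales each library to the same sum. The libraries held 4482916, 266790 and 3733531 counts in replicates 1, 2 and 3, of which the 8 genes took 3228, 167 and 1730. In replicate 2, 3 of the 8 genes had fewer than 10 counts. Fragments were counted by strand, and the sources used here do not state whether the strand setting matched the library kit, so each level, and the order of the 8 genes, is that of the counted strand. Where a coding and a noncoding gene faced each other with at least 100 counts each, the noncoding gene held more counts in 65.8% of 876 pairs in replicate 1. A setting opposite to the kit's was not tested, and under it the counts of a gene would stem from RNA of the other strand. Genes whose exons overlap exons of a gene on the other strand are called faced genes below. Their share of all counts was 51.7%, 55.1% and 66.5% in that order of replicates. Of the 8 genes, Cish and Pim1 were faced and the other 6 were not.

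The sequences below show what being faced means for Pim1 and Cish. The first pair is a whole coding exon of Pim1 on chromosome 17 from 29491325 to 29491431 (GRCm38), read on the plus strand as Pim1 and on the minus strand as the noncoding gene Gm26885. The second pair is the first 60 bases of the coding stretch that Cish, on the plus strand of chromosome 9, shares with the noncoding gene Gm17041, from 107300380 to 107300439. Each pair is one piece of DNA written 5′ to 3′ on its 2 strands, so only the strand of a fragment assigns it to one gene or the other. The sequences are those of the GENCODE mouse release 21 transcripts.
Pim1: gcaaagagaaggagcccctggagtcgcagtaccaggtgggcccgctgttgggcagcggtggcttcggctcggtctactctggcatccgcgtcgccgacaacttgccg
Gm26885: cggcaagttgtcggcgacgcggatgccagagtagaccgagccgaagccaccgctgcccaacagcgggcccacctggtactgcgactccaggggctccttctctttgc
Cish: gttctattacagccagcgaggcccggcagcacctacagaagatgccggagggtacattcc
Gm17041: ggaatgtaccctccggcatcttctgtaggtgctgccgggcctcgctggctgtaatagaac

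STAT proteins bind the palindrome TTCNNNGAA, which reads the same on both strands. It was searched in the RefSeq promoters of GRCm38.p6, each running from 250 bases before to 50 bases after a gene's start, which held 7 entries for 6 of the 8 genes (Pim1 has 2 entries). Of these 7, 2 held the palindrome, those of Cish and Socs3, against 8.30% of all 32851 promoters. Cish held it 2 times with 2 bases between, and 0.457% of all promoters held it 2 times or more. The same letters with 1 more base in the middle were in 0 of the 7 entries and in 6.95% of all promoters. The windows around the matches are shown because they are the letters that a STAT factor reads, with the palindrome in capitals. The Cish window lies on chromosome 9 from 107296654 to 107296683 on the plus strand, its first match beginning at the RefSeq start, inside the longer first exon of the deposited gene model. The Socs3 window lies on chromosome 11 from 117969502 to 117969530 on the minus strand, with its match beginning 154 bases before the start. These are matches of letters and not measured binding sites.
Cish: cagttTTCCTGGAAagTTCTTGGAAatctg
Socs3: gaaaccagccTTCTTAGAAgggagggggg

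The 3 PIM genes all had counts on the counted strand in every library, with Pim1 highest. Pim1, the first member found as a lymphoma oncogene, lies on chromosome 17 from 29490812 to 29496111 and is faced. It had 913, 57 and 543 counts, or 166, 167 and 101 TPM, in replicates 1, 2 and 3, with a mean of 145 ± 37.7 TPM (SD, n = 3). Its mean was above that of 94.4% of the protein-coding genes that reached 1 TPM. Pim2, known to sustain growth when other survival signals are blocked, lies on chromosome X from 7878262 to 7883432 and had 449, 23 and 204 counts. These equal 76.8, 63.7 and 35.8 TPM, a mean of 58.8 ± 20.9 (SD, n = 3). Pim3, whose substrates are shared with the other two kinases, lies on chromosome 15 from 88862186 to 88865718 and had 216, 9 and 119 counts. Its levels were 42.7, 28.8 and 24.2 TPM, a mean of 31.9 ± 9.65 (SD, n = 3). Within each library the order was Pim1, Pim2, Pim3, and Pim1 made up 58.1%, 64.4% and 62.8% of the summed TPM of the family. The ranges of Pim2 and Pim3 overlapped between libraries, and that of Pim1 overlapped neither.

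Among the SOCS genes, Socs3 had the highest mean TPM and Socs5 the lowest. Socs3, which shuts off receptors that signal through gp130, lies on chromosome 11 from 117966079 to 117970047. It had 481, 24 and 261 counts, or 79.6, 64.3 and 44.3 TPM, a mean of 62.7 ± 17.7 (SD, n = 3). Cish, which was the founding member of the family and restrains interleukin 2 and T-cell receptor signals, lies on chromosome 9 from 107296026 to 107302784 and is faced. It had 799, 39 and 413 counts, or 59.5, 47.0 and 31.6 TPM, a mean of 46.0 ± 14.0 (SD, n = 3). Its counts were above those of Socs3 in every library. The order of Socs3 and Cish in TPM therefore rests on their deposited exon lengths, 2891 and 6419 bases. Both genes were highest in replicate 1 and lowest in replicate 3.

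Socs1, which inhibits JAK kinases directly and limits interferon gamma signalling, lies on chromosome 16 from 10783808 to 10785536. It had 144, 3 and 91 counts, or 56.4, 19.0 and 36.6 TPM, a mean of 37.4 ± 18.7 (SD, n = 3). The exact 95% Poisson interval of the 3 counts in replicate 2 ran from 3.92 to 55.6 TPM, which holds the 36.6 TPM of replicate 3 and ends just under the 56.4 TPM of replicate 1. Without replicate 2 the mean of Socs1 was 46.5 TPM. Such intervals cover counting error only.

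Socs2 and Socs5 were the low members. Socs2, best known for limiting growth hormone signalling, lies on chromosome 10 from 95385362 to 95417180 and had 176, 12 and 85 counts. Its long exons of 9531 bases made these 8.83, 9.74 and 4.38 TPM, a mean of 7.65 ± 2.87 (SD, n = 3), so its level per length was below that of Socs1 in every library, although its counts were higher in replicates 1 and 2. Socs5, linked to interleukin 4 receptor signalling, lies on chromosome 17 from 87107679 to 87137583 and had 50, 0 and 14 counts. These were 5.44, 0 and 1.57 TPM, a mean of 2.34 ± 2.80 (SD, n = 3), and 0.783 without replicate 1. The 0 in replicate 2 allows up to 5.29 TPM at a limit of 3 counts, so absence cannot be read from it.

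**Figure D1:**
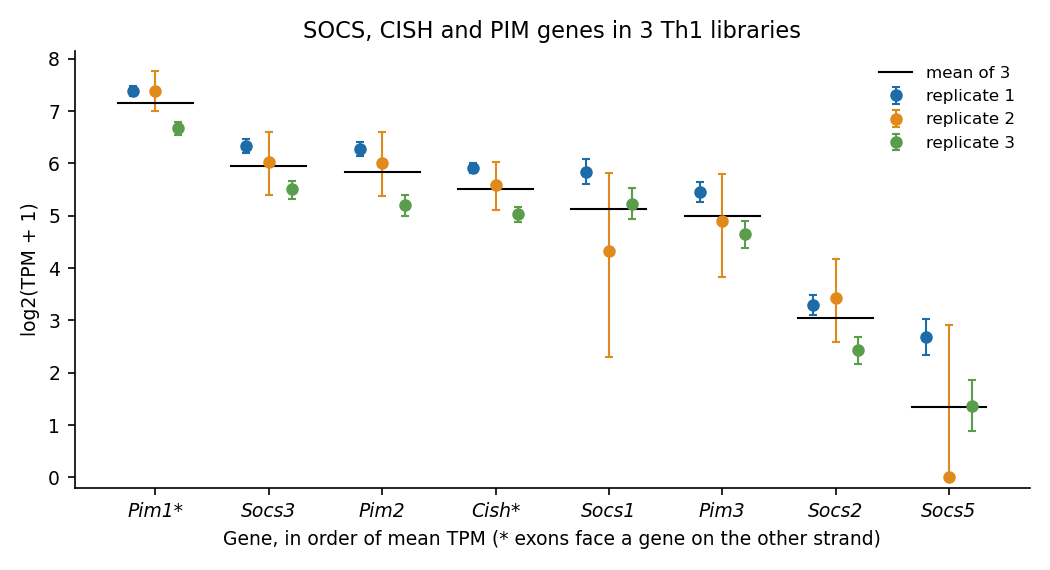
Level of each gene as log2(TPM + 1) in replicates 1, 2 and 3 (points), with exact 95% Poisson intervals of the counts (bars) and the mean of the 3 libraries (black lines), in order of mean TPM. Pim1 lies above the other genes, Socs2 and Socs5 lie below, and the wide bars of replicate 2 show its low depth.

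All 8 genes reached a mean of 1 TPM, against 47.8% of protein-coding genes, and 7 without replicate 1, which left Socs5 below. In every library, 7 were at 1 TPM or more, against 37.8% of protein-coding genes. A mean of 10 TPM was reached by 6, against 27.3% of protein-coding genes. The median of the 8 genes was 5.32 on the log2(TPM + 1) scale, beside 3.65 for the 10408 protein-coding genes detected at 1 TPM. The summed level of the 5 SOCS genes was 156 ± 47.7 TPM and that of the 3 PIM genes 235 ± 65.5 TPM (SD, n = 3). The PIM sum was larger in each library.

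The order of mean levels was Pim1, Socs3, Pim2, Cish, Socs1, Pim3, Socs2 and Socs5. Neighbours in this order were compared by the log2 ratio of TPM + 1 within each library, and called apart where the 3 libraries agreed in sign and the mean was over 2 SD. With 3 libraries, an exact two-sided sign-flip permutation test cannot go below p = 0.25, so no pair could pass it. Of the 7 neighbouring pairs, 3 were apart by more than their spread. Pim1 exceeded Socs3 by a mean log2 ratio of 1.19 ± 0.16 (2.29-fold), Pim2 exceeded Cish by 0.32 ± 0.13, and Pim3 exceeded Socs2 by 1.95 ± 0.42 (3.86-fold). Without replicate 1 the pair of Pim2 and Cish was no longer apart. Cish also held more counts than Pim2 in every library, so their order in TPM rests on deposited exon lengths of 6419 and 2795 bases.

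The other 4 neighbouring pairs did not differ beyond their spread. Socs3 and Pim2 had a ratio of 0.12 ± 0.16 and Cish and Socs1 one of 0.38 ± 0.78. For Cish and Socs1 the sign depended on replicate 2, and without it the ratio was -0.066. Socs1 and Pim3 had 0.13 ± 0.62, which was -0.089 without replicate 3 and 0.49, apart by the rule, without replicate 2. Socs2 and Socs5 had 1.70 ± 1.51, and 0.84, again apart by the rule, without replicate 2, where Socs5 had 0 counts. Over all 28 pairs of the 8 genes, 22 were apart by the same rule.

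The genes facing Cish and Pim1 held more counts than Cish and Pim1 themselves in every library. Gm17041 lies wholly inside exons of Cish, from 107300380 to 107301838 on the minus strand, and all 479 of its exon bases are shared, 321 of them coding in Cish and 158 untranslated. It had 5399, 277 and 7246 counts, against 799, 39 and 413 for Cish. The ratio of its counts to those of Cish was 6.76, 7.10 and 17.5 in replicates 1, 2 and 3, although Cish has 6419 exon bases. Per length, Gm17041 stood at 5390, 4476 and 7428 TPM, 90.6, 95.2 and 235 times the level of Cish, and its mean ranked 11th of all genes counted. These larger ratios rest on the 6419 bases of the deposited Cish model against 479. That model holds bases outside the transcript Cish-201, 158 of them shared with Gm17040, described next.

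Gm17040, annotated as a transcribed processed pseudogene, overlaps the first exon block of Cish on the minus strand, from 107292435 to 107297192, and shares 261 of its 1150 exon bases with Cish. It had 1303, 81 and 2254 counts, which were 1.63, 2.08 and 5.46 times those of Cish. Gm26885 spans chromosome 17 from 29461896 to 29491925 on the minus strand and shares 468 of its 1688 exon bases with Pim1, in 4 stretches that are all coding in Pim1. It had 4588, 247 and 7170 counts, against 913, 57 and 543 for Pim1, ratios of 5.03, 4.33 and 13.2. Its remaining exon bases do not face Pim1, so not every count of it can be laid on the shared stretch.

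**Figure D2:**
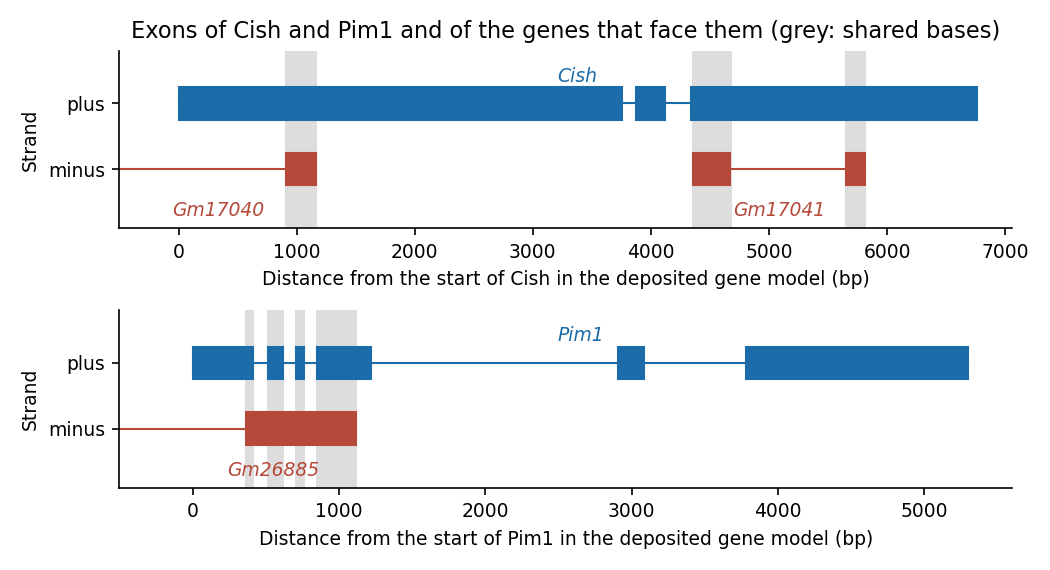
Exons (boxes) of Cish and Pim1 on the plus strand and of the genes facing them on the minus strand, against the distance in bp from the start of each deposited gene model; grey bands mark shared bases. Both exons of Gm17041 lie within the last exon block of Cish, while Gm17040 and Gm26885 run on past the left edge.

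For each of the 3 facing genes the ratio was highest in replicate 3, at 3.35, 2.60 and 2.63 times its value in replicate 1 for Gm17040, Gm17041 and Gm26885. The mean ratio therefore rested on replicate 3: it was 3.06, 10.5 and 7.52 over the 3 libraries and 1.85, 6.93 and 4.68 without replicate 3, in the same order. The same shift ran through the libraries. Of 876 facing pairs of a coding and a noncoding gene with at least 100 counts each, the ratio was higher in replicate 3 than in replicate 1 in 97.1%, and the median shift was 2.35-fold (middle 50% of pairs from 1.92 to 2.77). In replicate 1 the median ratio was 1.65, and 7.99% of pairs had a higher ratio than Gm17041 and Cish. For Gm26885 and Pim1 the share of pairs above them was 13.9%. How many fragments counted for Cish or Pim1, or for the genes facing them, came from the other strand's RNA was not tested.

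**Figure D3:**
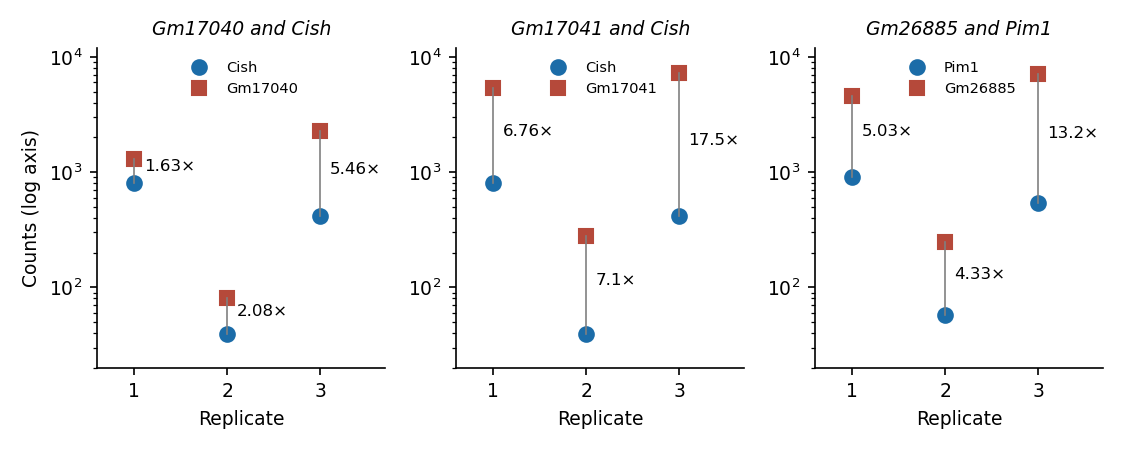
Counts per library (log axis) of Cish or Pim1 (circles) and of the gene facing it (squares), with the ratio of the 2 printed beside each line. The facing gene is higher in all 3 libraries of each panel and the ratio is largest in replicate 3.

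Differences between the libraries were tested for every gene with a chi-square test on counts, with library sizes scaled by TMM (a trimmed mean that guards against a few abundant genes). A gene was called at an adjusted p under 0.05 with at least 2-fold between the highest and lowest library, and of 11595 genes tested 28.9% were called. Of the 8 feedback genes 0 were called, and 0 had an unadjusted p under 0.05 with that fold; with DESeq2 size factors the count was also 0. Socs5 could not reach that fold while replicate 2 was included. A limit of 3 counts was put under its 0 there, about as high as its level in replicate 1. The share was 17.7% for genes with no facing exons and 45.5% for faced genes, and neither Cish nor Pim1 was among those called, while all 3 genes facing them were, each highest in replicate 3. Without replicate 2, Socs5 was called (chi-square test, adjusted p = 0.0217; 2.23-fold between replicates 1 and 3, 50 and 14 counts), where 16.5% of genes were. With library totals in place of TMM, Socs1 was called (chi-square test, adjusted p = 0.0410) on its 3 counts in replicate 2, where 32.1% of genes were.

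At any fold, 3 of the 8 genes had an adjusted p under 0.05 in this test, against 45.5% of all genes. This count rested on the scaling and the libraries: it was 5 with DESeq2 size factors and 8 with library totals. It was 0 of the 6 unfaced genes scaled over unfaced genes, 0 of 7 tested without replicate 1 and 0 of 8 without replicate 3. The share of all genes at any fold is given for the TMM setting with all libraries only. The counts under the other settings therefore cannot be read against the share of all genes. Pim2 had 1.37-fold between replicates 1 and 3 (chi-square test, adjusted p = 0.00328) and Cish 1.20-fold (chi-square test, adjusted p = 0.0208). Socs5 had an adjusted p of 0.0187 in the chi-square test, and no fold is given because the limit of 3 counts in replicate 2 is about as high as its level in replicate 1. Pim1 had the smallest fold of the genes counted in all libraries, at 1.11 (chi-square test, adjusted p = 0.671). Socs3 had 1.17-fold (chi-square test, adjusted p = 0.277), Pim3 1.4-fold (chi-square test, adjusted p = 0.480) and Socs2 1.5-fold (chi-square test, adjusted p = 0.192). Socs1 had 2.86-fold, on 3 counts in replicate 2 (chi-square test, adjusted p = 0.258).

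All 8 genes had lower TPM in replicate 3 than in replicate 1, and this was shared by most genes: it held for 76.1% of the 11595 genes, for 93% of those with no facing exons and for 50.8% of faced genes. The ratio of replicate 3 to replicate 1 ran from 0.288 for Socs5 to 0.649 for Socs1, with a median of 0.544. For genes with no facing exons the median was 0.587 (middle 50% from 0.517 to 0.685). Of the 6 unfaced genes, Socs3 (0.557), Pim3 (0.566) and Socs1 (0.649) lay within that middle range, and Socs2 (0.496), Pim2 (0.467) and Socs5 lay below it. For faced genes the median was 0.980 (middle 50% from 0.622 to 1.398), and the faced genes Cish (0.531) and Pim1 (0.611) lay below that range, within the one of unfaced genes.

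TPM was next scaled over genes with no facing exons alone; setting replicate 3 against replicate 1, on any scale, was chosen after the data were seen. This moved the ratio of replicate 3 to replicate 1 by 0.65 on the log2 scale for every gene. It did so because faced genes held a larger share of the counts divided by exon length in replicate 3. On that scale 7 of the 8 genes were still lower in replicate 3, with Socs1 at 1.02. Of the 6 unfaced genes among them 5 were lower, against 64.8% of all genes with no facing exons. The values of the 8 genes also lay closer together across libraries. The SD of Pim1 was 26.1% of its mean on the scale of all genes and 5.59% on the scale without faced genes, where its levels were 422, 452 and 405 TPM. That of Socs3 was 28.2% and 8.56%, with 203, 174 and 178 TPM. For Cish the 2 values were 30.4% and 10.6%, and a smaller percentage held for each of the 8 genes.

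**Figure D4:**
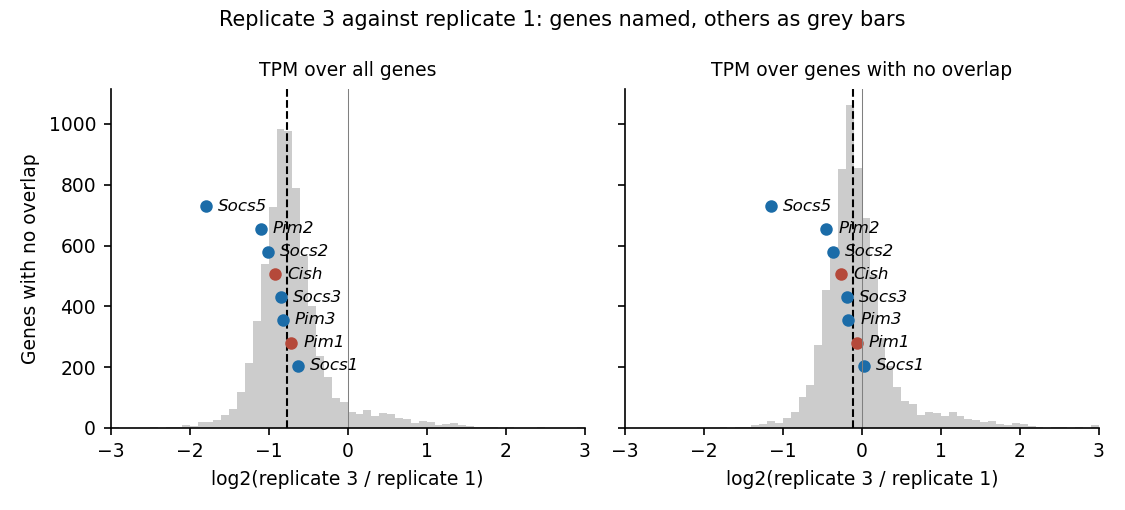
Log2 ratio of replicate 3 to replicate 1 for the 8 named genes (points at arbitrary height, red where faced) over the number of genes with no facing exons at each ratio (grey bars; ratios beyond 3 are drawn at the edge), with the median of those genes dashed. On the left TPM was scaled over all genes and on the right over genes with no facing exons, where the points move toward 0 with Socs5 lowest.

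The rest of the pathway was described by lists of 79 other genes, of which 73 reached 1 TPM and 57 reached 10 TPM. Of all protein-coding genes, 47.8% and 27.3% did so. Of the 71 with enough counts to be tested, 8 were called as varying between libraries, against 28.9% of all genes. Among the remaining SOCS genes, Socs4 had 11.6 ± 3.23 TPM, Socs7 9.71 ± 4.89 and Socs6 1.86 ± 0.54 (SD, n = 3), so all 3 were below Socs3, Cish, Socs1 and the PIM genes in mean level. Of the 5 ligase partners that the SOCS box or its cullin recruits, Elob was highest at 257 ± 66.2 TPM (SD, n = 3; faced). The cullin Cul5 (5.87 TPM, faced) and its ring protein Rnf7 (28.2 TPM) were both called, with 1 and 0 counts in replicate 2.

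Receptors and their kinases stood upstream at levels that differed widely. All 18 receptor chains reached 1 TPM, led by Il2ra, the high-affinity chain for interleukin 2, at 559 ± 166 TPM, while the shared gamma chain Il2rg had 29.1 ± 16.1 (SD, n = 3). The receptors called were Il10rb, highest in replicate 2, Il12rb1, highest in replicate 1, and Il6ra (faced), highest in replicate 3. The 4 JAK kinases had a median of 42.5 TPM, close to the 41.7 TPM of the 8 feedback genes. None of them was called, beside 28.9% of all genes tested, and so few genes cannot show a lower share. Jak2 was highest at 78.4 ± 28.5 and Tyk2 (faced) lowest at 10.9 ± 2.93 (SD, n = 3). All 7 STAT genes reached 10 TPM. Stat5b had 59.9 ± 16.8 and Stat5a 52.9 ± 12.7 TPM (SD, n = 3), and Stat3 had 56.4, 71.5 and 49.1 TPM in replicates 1, 2 and 3. Stat5a and Stat3 face each other.

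Ligands were fewer. Of 12 cytokine genes, 6 reached 1 TPM and 5 had 0 counts in every library. Ifng was highest at 604 ± 252 TPM (SD, n = 3), then Il21 (faced) at 92.3 ± 12.5. Il2, the cytokine that induces Cish, had 47, 0 and 36 counts, or 19.6, 0 and 15.5 TPM, and Il6 had 11, 0 and 6 counts.

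Other brakes on the pathway were all detected, 13 of 13 at 1 TPM and 11 at 10 TPM. The phosphatase Ptpn6 (faced) was highest at 175 ± 50.6 TPM, and the phosphatases Ptpn2 (68.5 ± 22.0) and Ptpn1 (60.5 ± 19.0) and the ubiquitin ligase Cblb (64.7 ± 23.3) stood near Socs3 (SD, n = 3). Pias1 and Cbl were called, both highest in replicate 2. The 7 genes known as STAT5 targets all reached 10 TPM and 0 were called, led by Gadd45g at 151 ± 61.4 TPM (SD, n = 3). Of the 10 genes whose products PIM kinases phosphorylate or regulate, 7 reached 10 TPM and 0 of 9 tested were called. The share called among all genes tested was 28.9%, and lists this small cannot show that their genes vary less. The initiation factor Eif4b led with 328 ± 97.8 TPM, then the cell cycle inhibitor Cdkn1a (211 ± 51.3) and Myc (183 ± 60.1), and the chemokine receptor Cxcr4 was lowest at 1.15 ± 1.35 (SD, n = 3).

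**Figure D5:**
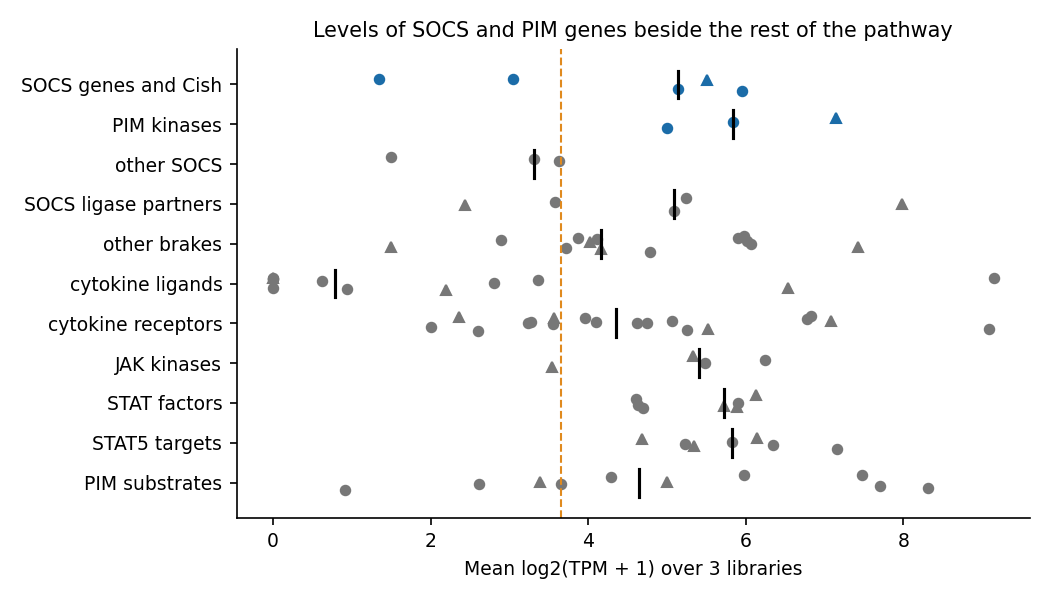
Mean log2(TPM + 1) over the 3 libraries of each gene in the pathway lists (circles, or triangles where faced), with the list median as a black bar and the median of detected protein-coding genes dashed. SOCS genes and Cish spread from Socs5 at 1.35 to Socs3 at 5.95, and the PIM kinases from Pim3 at 5.00 to Pim1 at 7.15.

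Genes with the pattern most like that of a feedback gene were found by the distance between log2(TPM + 1) values over the 3 libraries, among 2752 protein-coding genes with at least 10 counts in each library and no facing exons. Of the 8 genes, Socs2, Socs3 and Pim2 met the same conditions. Nearest to Pim2 were Mrpl43 (distance 0.04) and Creld2 (0.10), nearest to Socs3 were Sept9 (0.07) and Ctps (0.09), and nearest to Socs2 were Cyld (0.13) and Prkacb (0.17). With 3 libraries this likeness is mostly one of level.

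The labelled cell type was checked against its markers. Cd4 had 174 ± 53.5, Tbx21 70.5 ± 22.1 and Ifng 604 ± 252 TPM (SD, n = 3), while Cd3e (faced) had 34.2, 1.90 and 18.9 TPM. Of 13 markers of CD8 T, B, macrophage, natural killer and neutrophil cells, 9 had 0 counts in every library, among them Cd8a, Lyz2 and Ncr1. The other CD8 T marker, Cd8b1, had 14, 0 and 7 counts, or 4.51, 0 and 2.32 TPM, and the neutrophil marker Ly6g had 2, 0 and 3 counts. The summed TPM was 3.61 to 10.6 for B-cell markers and 85.4 to 135 for macrophage markers, the latter all from Csf1r (faced). Of markers of other CD4 fates, Foxp3 (faced) had 64.9 ± 2.73, Gata3 (faced) 2.19 ± 0.30 and Bcl6 (faced) 0.842 ± 0.321 TPM (SD, n = 3), and Il17a had 0 counts. The part of other CD4 cells in the levels of the 8 genes was not tested. In RNA from many cells, fewer cells expressing a gene and less RNA per cell cannot be told apart.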

How the data were processed

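RNA was sequenced from 3 Th1 libraries. The authors deposited raw counts, made with featureCounts 1.4.6-p4 from fragments with both ends mapped, over exons grouped into genes (GENCODE mouse release 13, assembly mm10), with strand setting 1, per the file headers. The sources used here give no aligner version. Value columns left unused numbered 0.

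Symbols came from GENCODE mouse release 21 on the same assembly, matched by identifier without version (50376 of 50600). Coordinates are those of the files, counted from 1. TPM was computed from counts and deposited exon lengths. A gene was faced when any exon base lay in an exon on the other strand (8189 genes, 16.2%). The chi-square test used genes with a mean count of at least 10, TMM factors from edgeR 4.0.16, Benjamini-Hochberg adjustment over all genes tested, and at least 3 counts in the lowest library when a fold was formed; it holds counting error only. It was tested on simulated counts with counting error and changes planted in replicate 3. These lacked the shift between faced and unfaced genes seen in the libraries, so how the test behaves under that shift was not tested. DESeq2 1.42.0 gave alternative size factors. Log ratios used a pseudocount of 1 TPM, which shrinks ratios of low genes. For Pim3, of 2419 exon bases, 3 counts equal 0.593, 9.60 and 0.609 TPM in replicates 1, 2 and 3.

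The genes, lists and tests were chosen with earlier results of these data known. The text may name the 8 genes, genes facing them, all list genes, and the 2 nearest genes by pattern. Alternatives changed minima, scaling, averages and pseudocount, and left out each replicate.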

Additional observations from a re-analysis of the deposited data

How the results depend on the processing

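All 8 genes kept a mean of at least 1 TPM except without replicate 1 (7 genes, Socs5 below), and 7 reached 5 TPM. Scaling TPM over genes with no facing exons raised each level, by construction, to 426 for Pim1, 185 for Socs3, 171 for Pim2, 135 for Cish, 114 for Socs1, 94.5 for Pim3, 22.1 for Socs2 and 6.72 for Socs5, which kept the order. Genes varying between libraries numbered 3349 of 11595, 1848 of 5137 when a mean count of 100 was required, 1048 of 6933 among unfaced genes scaled over themselves (1228 of these 6933 under the scaling of all genes; fewer genes were tested in all of these), and 1323 to 2019 when 1 replicate was left out. Of the 8 genes, 0 varied, 1 with library totals (Socs1), and 0 to 1 when 1 replicate was left out (Socs5 without replicate 2). With replicate 2 included, Socs5 could not reach the fold that a call needs.

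Leaving out 1 replicate moved the log2 ratio of Pim2 to Cish between 0.27 and 0.40, that of Cish to Socs1 between -0.066 and 0.67, that of Socs1 to Pim3 between -0.089 and 0.49, and that of Socs2 to Socs5 between 0.84 and 2.25. The count of neighbouring pairs apart, 3 of 7, ranged from 2 to 5. The depth of replicate 2 limits Socs1, Socs5 and Pim3, with 3, 0 and 9 counts there. Genes lower in replicate 3 than in replicate 1 numbered 8, and 7 with TMM-scaled counts or without faced genes in the scaling. No paired comparison of groups was possible because the labels give 1 group.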
